A study of Arabidopsis thaliana with 9 samples.

Results

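The mutant pca31 was compared with its parent atrzf1 in whole seedlings of Arabidopsis thaliana, a small flowering plant, library by library. The members are the 3 pca31 libraries and the 3 atrzf1 libraries of the 9 libraries in the series, joined by the replicate number in their titles into 3 pairs. WT seedlings of the Col-0 accession gave the other 3 libraries, whose levels are shown beside the pairs. A gene was described when its pca31 library was above, or below, its same-numbered atrzf1 library in all 3 pairs, which held for 4964 of the 20672 genes measured. Seedlings of all genotypes were raised on MS medium to an age of 2 weeks, with no stress treatment named in the labels. The series describes pca31 as a suppressor of atrzf1, and both had a low AtRZF1 transcript level. The labels do not give the kind of mutation in either line, nor how many independent lines were used. They also do not say whether libraries of a genotype came from separate cultures, so p-values cover the spread among these samples alone, and that spread may be technical.

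AtRZF1 is a RING-type E3 ubiquitin ligase, an enzyme that marks proteins for breakdown, and it is known for its part in the drought response and in proline accumulation. Proline is made from glutamate by P5CS and P5CR enzymes and broken down in mitochondria by proline dehydrogenase, and plants store it when water is short. Rhamnogalacturonan-I is a pectin of the cell wall with a backbone of alternating rhamnose and galacturonic acid and side chains of arabinan and galactan. Rhamnogalacturonan lyases cut that backbone. The series text names a lyase, RGL1, as acting opposite to AtRZF1, and the labels do not say which gene RGL1 is.

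Reads came from the 3′ ends of transcripts, and the deposited files give a raw count for each gene. The 6 libraries held 23414231 to 33073605 counts in all. Levels are given as CPM, counts scaled to a common library size after scaling the library sizes by TMM factors. A count of 0 allows up to 3 counts, or 0.0867 to 0.131 CPM, and this floor covers counting error only. Seedlings were sampled whole, so fewer cells of a type and less RNA per cell cannot be told apart in any value below. Library 2 of pca31 stood apart, with a TMM factor of 1.05 against 0.824 in atrzf1 library 2, and the number 3 libraries held more root transcripts than the rest. Summed root markers were at 2234 CPM in atrzf1 and 2959 CPM in pca31 for number 3, against 122 to 212 CPM in the other 4 libraries.

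AtRZF1 (AT3G56580) was checked first. Its level in libraries 1, 2 and 3 was 24.0, 31 and 25.4 CPM in WT, 2.30, 4.60 and 2.11 CPM in atrzf1, and 1.16, 3.18 and 2.52 CPM in pca31. Every atrzf1 and pca31 library was below every WT library, and the atrzf1 and pca31 ranges overlapped. Here and below, ± after a log2 fold change is the SE from the fit of all 9 libraries. The log2 fold change of pca31 against atrzf1 was -0.39 ± 0.27 (3 pairs), with an edgeR quasi-likelihood adjusted p of 0.956. The low AtRZF1 transcript level was therefore present in both genotypes compared.

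One gene passed the test between pca31 and atrzf1, which is 0.00484% of the 20672 genes measured. The test was edgeR's quasi-likelihood test with the replicate number as a block, Benjamini-Hochberg adjusted over all genes with a threshold of 0.05. The gene was AT4G21620, annotated as a glycine-rich protein and located on TAIR10.1 chromosome 4 from 11491264 to 11492216 on the plus strand. Its level in libraries 1, 2 and 3 was 168, 407 and 358 CPM in WT, 163, 476 and 344 CPM in atrzf1, and 0.805, 1.21 and 1.26 CPM in pca31. The pca31 libraries held 25, 42 and 38 counts where the atrzf1 libraries held 4829, 10879 and 9454. All 3 pca31 libraries were far below all 6 others, and WT and atrzf1 overlapped. The transcript fell by 8.15 ± 0.23 on the log2 scale, or 285-fold, with an edgeR adjusted p of 5.42e-09.

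The 200 bases before the annotated start of AT4G21620 are shown because it is the gene called, and those of the coatomer pair AT4G31480 and AT4G31490 because the count ratio of these neighbouring copies was higher in all 3 pca31 libraries than in the other 6. The bases were read from the RefSeq TAIR10.1 genome on the strand of the gene. Capitals mark TATAAA on the gene's strand, the core ACGTG of the abscisic acid response element on either strand, and CCGAC, the core of the dehydration response element, on either strand. The first spans chr4:11491064-11491263, the second chr4:15262816-15263015 and the third chr4:15268246-15268445, all on the plus strand.
AT4G21620: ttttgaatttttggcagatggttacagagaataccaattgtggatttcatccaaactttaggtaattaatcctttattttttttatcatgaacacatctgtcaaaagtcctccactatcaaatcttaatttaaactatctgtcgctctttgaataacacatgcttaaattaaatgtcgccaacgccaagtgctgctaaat
AT4G31480: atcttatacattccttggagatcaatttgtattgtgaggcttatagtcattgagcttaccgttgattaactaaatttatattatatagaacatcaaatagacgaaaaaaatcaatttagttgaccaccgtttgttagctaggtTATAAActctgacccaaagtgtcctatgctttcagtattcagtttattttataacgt
AT4G31490: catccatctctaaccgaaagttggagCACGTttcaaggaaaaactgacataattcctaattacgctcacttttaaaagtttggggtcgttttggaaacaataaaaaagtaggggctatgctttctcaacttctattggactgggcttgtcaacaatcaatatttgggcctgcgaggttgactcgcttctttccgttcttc

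The window of AT4G21620 held 0 matches to the 3 motifs. AT4G31480 held 1 TATAAA match and AT4G31490 held 1 ACGTG match. Of 27443 protein-coding genes with a window of this length, 28.3% held TATAAA, 19.8% held ACGTG and 10.1% held CCGAC. A match describes letters only.

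The neighbours of AT4G21620 were looked at in turn. Of the 5 annotated genes on each side, 7 were measured, with log2 fold changes from -0.01 to 1.26. Among them 0 were lower in all 3 pairs and 1, CPL1, was higher. LOL2, which ends 841 bases before AT4G21620, was at 2.40, 5.52 and 4.63 CPM in atrzf1 and 4.02, 4.16 and 4.72 CPM in pca31, with overlapping ranges.

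**Figure D1:**
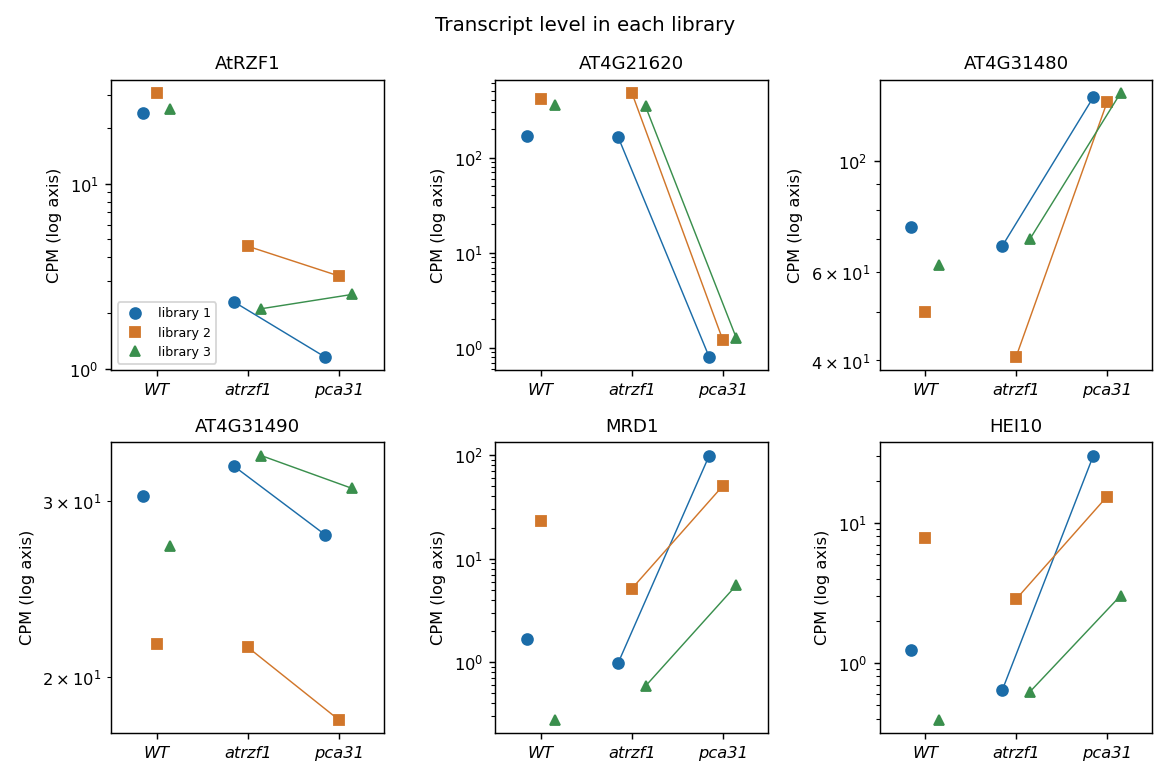
Level of AtRZF1, AT4G21620, the coatomer genes AT4G31480 and AT4G31490, MRD1 and HEI10 in CPM on log axes, 1 point per library. Shapes and colours give the replicate number, and lines join same-numbered atrzf1 and pca31 libraries. AT4G21620 drops in every pair, AT4G31480 is at 131 to 137 CPM in pca31 while its copy AT4G31490 stays within its WT and atrzf1 range in 2 of 3 libraries, and MRD1 and HEI10 are higher in every pair by very different amounts.

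Genes with the same sign in all 3 pairs made up 24.0% of those measured. Unrelated pairs also give genes of the same sign, and this share was not tested against that. Their differences were mostly small, and AT4G21620 alone among them passed the test. Higher in pca31 in every pair were 2601 genes (12.6%) and lower were 2363 genes (11.4%). Scaled by library totals in place of TMM, which moved the median paired difference of all genes from 0.02 to 0.16 on the log2 scale, the counts were 4774 higher and 900 lower. The median over the 4964 genes of their smallest paired difference was 0.10 on the log2 scale and the 95th percentile was 0.40. In 2786 of them (56.1%) every difference was under 1.5-fold. At an unadjusted p under 0.05, edgeR with the block gave 914 genes, of which 808 had the same sign in all pairs. Both measures rest on the same libraries, so this overlap is not separate support for either.

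The pairs shared little of their pattern. Across the 20672 genes, the correlation of paired differences was -0.05 between pairs 1 and 2, -0.01 between pairs 1 and 3, and 0.01 between pairs 2 and 3, as a description over genes, which are not independent. Pair 2 was the widest, with 28.1% of genes at least 1.5-fold apart, against 14.9% in pair 1 and 13.9% in pair 3. Requiring 1.5-fold in all 3 pairs left 42 genes higher (0.203%) and 14 lower (0.0677%). At 2-fold in all 3 pairs there were 2 higher, MRD1 and HEI10, and 1 lower, AT4G21620.

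**Figure D2:**
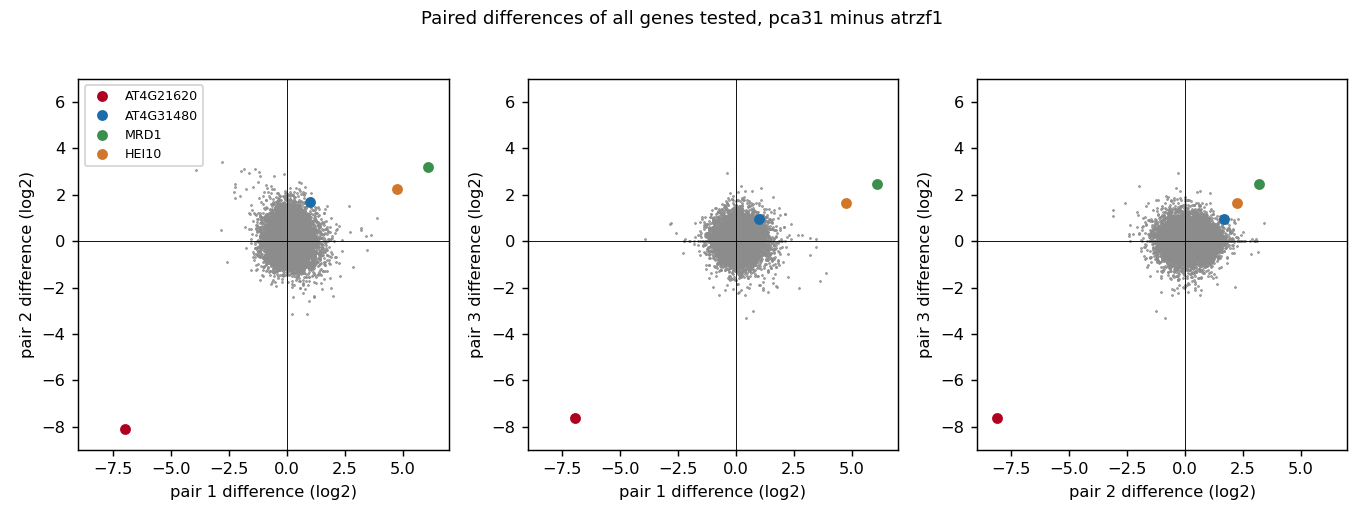
Paired differences of the 20672 genes measured, log2(CPM + 0.5) of pca31 minus atrzf1, with each panel setting 1 pair against another. Grey points are genes, forming a round cloud with correlations of -0.05, -0.01 and 0.01, and coloured points are AT4G21620 at the lower left and MRD1, HEI10 and AT4G31480 at the upper right.

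AT4G31480 encodes a beta subunit of coatomer, the coat of vesicles that carry proteins between the Golgi and the endoplasmic reticulum. It lies on chromosome 4 from 15263016 to 15267891 on the plus strand. Its level in libraries 1, 2 and 3 was 73.9, 49.9 and 62.0 CPM in WT, 67.8, 40.6 and 69.8 CPM in atrzf1, and 134, 131 and 137 CPM in pca31. The mean was 59.4 ± 16.3 CPM (SD, n = 3) in atrzf1 and 134 ± 2.93 CPM in pca31, and the 3 pca31 libraries lay above all 6 others. The log2 fold change was 1.22 ± 0.18, with an edgeR adjusted p of 0.177, which did not pass the threshold. Of the alternatives, DESeq2 with the block gave an adjusted p of 6.08e-07, limma-voom with the block 0.0478 and edgeR without a filter on low counts 0.00774. Over the 17 alternatives the log2 fold change ran from 0.97 to 1.38 and the adjusted p from 6.08e-07 to 1.

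The next gene, AT4G31490, is a second coatomer beta gene that starts 555 bases after AT4G31480 ends. Its level was 32.5, 21.4 and 33.3 CPM in atrzf1 and 27.8, 18.1 and 30.9 CPM in pca31, lower in each pair by 0.11 to 0.24 on the log2 scale. The ranges overlapped. The ratio of AT4G31480 counts to AT4G31490 counts was 2.44, 2.32 and 2.29 for WT. It was 2.08, 1.90 and 2.09 for atrzf1 and 4.83, 7.24 and 4.43 for pca31. All 3 pca31 ratios were above all 6 others. The longest annotated transcripts of the copies were 93.9% identical over 3695 aligned bases, and their last 300 bases, where 3′ reads fall, were 83.3% identical over 276 aligned bases. Reads could be exchanged between the copies, and how the counting treated such reads is not given in the sources used here. Of the 5 annotated genes on each side of AT4G31480, 8 were measured, with 1 higher in all 3 pairs and 2 lower. The higher was AT4G31520, an SDA1 family gene at under 0.65 CPM in every library and at least 1.5-fold higher in each pair. The lower were AT4G31490 and AT4G31530, the latter by 0.13 to 0.20 on the log2 scale.

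MRD1 (AT1G53480), named for a transcript that is low in the methionine-overaccumulating mutant mto1, had the largest differences upward. In order of library number, atrzf1 held 0.980, 5.12 and 0.583 CPM and pca31 held 99.5, 50.7 and 5.55 CPM, with 1.67, 23.2 and 0.275 CPM in WT. Each pca31 library was above its atrzf1 partner and above every atrzf1 library. Levels within pca31 spanned 5.55 to 99.5 CPM, and WT library 2 lay between the pca31 values. Its fitted log2 fold change was 4.94 ± 0.83 with an edgeR adjusted p of 0.498. Over the alternatives it ran from 3.32 to 6.08, with an adjusted p from 0.00221 to 1. It was called in 3 of 17 alternatives, namely without a filter on low counts, in the fit of the 6 libraries alone, and without pca31 library 2.

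HEI10 (AT1G53490), a RING-type protein known for its part in meiotic crossing-over, overlaps MRD1 on the opposite strand. Its level was 0.642, 2.85 and 0.619 CPM in atrzf1, 30.2, 15.4 and 3.02 CPM in pca31, and 1.24, 7.76 and 0.393 CPM in WT. The order of libraries was that of MRD1 in pca31. For HEI10 the log2 fold change was 3.66 ± 0.67, with an edgeR adjusted p of 0.741, and alternatives gave 2.41 to 4.47 with an adjusted p from 0.00774 to 1. The strand setting of the counting is not given in the sources used here, so reads of the overlapping genes cannot be told apart. MUM4, the next gene with counts and a maker of UDP-rhamnose, the sugar donor for rhamnogalacturonan-I, was at 9.67, 8.19 and 8.89 CPM in atrzf1 and 10.7, 11.2 and 6.48 CPM in pca31. These ranges overlapped and the signs of its pairs differed. Of the 5 annotated genes on each side of MRD1, 6 were measured. HEI10, AT1G53450 and AT1G53460 were higher in all 3 pairs and 0 were lower. The log2 fold changes of AT1G53450 and AT1G53460 were 0.50 and 0.87, each with an edgeR adjusted p of 0.956.

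Among genes averaging at least 5 CPM in the higher genotype, the 14 with the largest smallest difference in each direction were taken as examples. The last gene upward, AT5G38200, had a smallest difference of 0.579 on the log2 scale and the next gene outside, AT1G70850, 0.574. Downward the last gene, AT5G54530, and the next outside, AT1G04425, both had a smallest difference of 0.438 in size. None of the examples other than AT4G21620 passed the test, and all but AT4G31480, MRD1 and HEI10 had an edgeR adjusted p of 0.956.

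Among the 14 higher genes, TPPE, a trehalose phosphate phosphatase that makes the sugar trehalose, was at 6.56, 3.9 and 1.89 CPM in atrzf1 and 10.7, 7.69 and 4.82 CPM in pca31. AT3G19390, a granulin-domain cysteine protease, was at 0.609, 0.569 and 7.72 CPM in atrzf1 and 1.29, 1.39 and 16.0 CPM in pca31. The values of both genes overlapped between genotypes across numbers, and the order held only within a pair. CYP77A6, a cytochrome P450 of cutin synthesis, was at 5.34, 5.74 and 1.27 CPM in atrzf1 and 8.50, 8.96 and 2.16 CPM in pca31, with paired differences of 0.62, 0.60 and 0.58 and overlap through library 3. Its log2 fold change was 0.68 ± 0.28.

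AT3G05675, a BTB/POZ domain protein, was at 3.65, 2.76 and 4.99 CPM in atrzf1 and 6.69, 5.37 and 8.47 CPM in pca31. Its 3 pca31 libraries were above all 3 atrzf1 libraries, with a log2 fold change of 0.88 ± 0.35, while WT reached 5.5 CPM. AT3G26782, a tetratricopeptide repeat protein, was at 2.40, 1.93 and 3.64 CPM in atrzf1 and 3.93, 4.91 and 6.35 CPM in pca31, again with no overlap of the groups. The gene shares bases with AT3G26780 on its own strand, so its counts may include that gene. G18F, an ATG18-type autophagy protein, was at 3.82, 2.72 and 3.61 CPM in atrzf1 and 6.66, 4.30 and 6.81 CPM in pca31, also without overlap. The peroxidase AT2G41480, the peroxisomal membrane protein AT4G03410, the lipid transfer protein AT4G33355, the TRAF-like gene AT3G20370 and the amidotransferase-like AT5G38200 complete the group, with fitted log2 fold changes of 0.77 to 1.17. Of these, AT3G20370 reached 26.6 CPM and AT5G38200 reached 9.40 CPM in library 3 of atrzf1, against 0.657 CPM or less in its other libraries, both high in the same libraries as the root markers. AT3G19390, named above, was also high there, at 7.72 CPM in atrzf1 and 16.0 CPM in pca31. AT2G41480 reached 14.2 CPM in library 3 of pca31, against 4.57 and 3.87 CPM in libraries 1 and 2. The part of root content in these differences was not tested. AT4G03410 shares bases with AT4G03405 on its own strand, so its counts may include that gene.

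Of the 13 lower genes beside AT4G21620, CDEF1 had the widest differences. CDEF1 is a lipase-type enzyme that can break down the cuticle. It was at 1.45, 1.49 and 22.4 CPM in atrzf1 and 0.386, 0.116 and 13.5 CPM in pca31, with a log2 fold change of -1.56 ± 0.44. The number 3 libraries were high in both genotypes, so the groups overlapped. AT3G19680, of the DUF1005 family, was at 54.2, 20.5 and 31.2 CPM in atrzf1 and 23.7, 12.6 and 15.0 CPM in pca31, with overlap and a log2 fold change of -1.0 ± 0.34. WT values of AT3G19680 were 21.2, 29.7 and 56.6 CPM.

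AGP17, an arabinogalactan protein of the cell surface, was at 24.5, 19 and 43.1 CPM in atrzf1 and 15.4, 12.7 and 22.7 CPM in pca31. Its log2 fold change was -0.71 ± 0.22 and the groups overlapped. TAS1C, a non-coding transcript that is processed into trans-acting small interfering RNAs, was at 14.8, 18.7 and 8.89 CPM in atrzf1 and 9.53, 10.8 and 4.32 CPM in pca31. Its log2 fold change was -0.81 ± 0.20. MES17, an esterase that frees auxin from its methyl ester, was at 24.8, 25.3 and 7.47 CPM in atrzf1 and 17.3, 17.4 and 4.78 CPM in pca31, a change of -0.56 ± 0.17. For TAS1C and MES17 the order held within each pair, while the groups overlapped through library 3.

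The rest of the lower group included PC-MYB1, a MYB3R-type regulator of cell-cycle genes, SOB5, named as a suppressor of a phytochrome B mutant, the CCCH zinc finger gene AT5G44260, the calmodulin-binding AT5G04020, the pseudogene AT3G20365 and the protease-annotated AT5G54530. Their fitted log2 fold changes were -0.99 to -0.61. In library 3, SOB5 reached 26.9 CPM in atrzf1 and 16.0 CPM in pca31, against 1.68 to 5.44 CPM in the other 4 libraries.

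**Figure D3:**
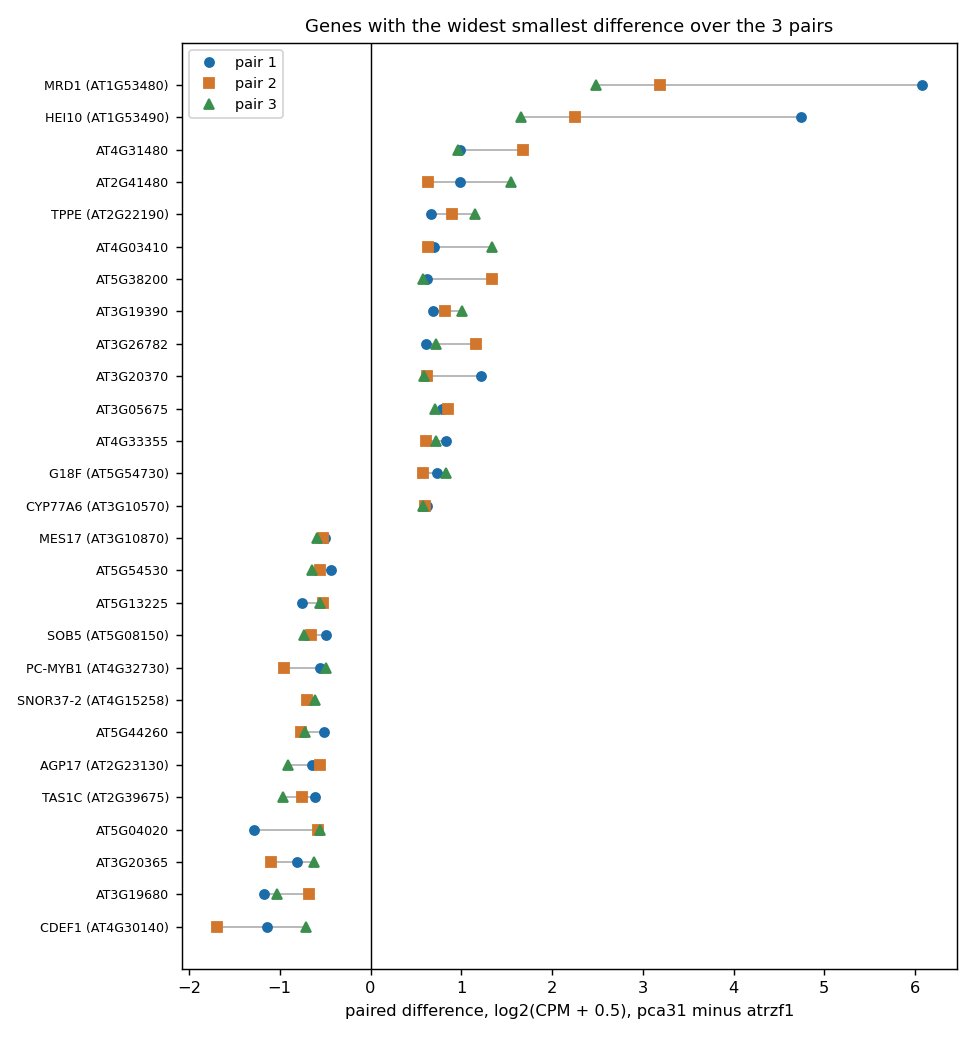
The 3 paired differences, log2(CPM + 0.5) of pca31 minus atrzf1, of the 14 higher genes and the 13 lower genes other than AT4G21620, 1 row per gene and 1 mark per pair, with a grey line over their range. MRD1 and HEI10 reach 6.08 and 4.75 in pair 1, and most other genes lie between 0.5 and 1.7 in size in every pair.

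The snoRNA genes SNOR37-2 and AT5G13225 were also among the lower examples. Small nucleolar RNAs guide chemical changes of ribosomal and other RNAs. They are shown because they were the snoRNA genes among the lower examples, which average at least 5 CPM in the higher genotype. The sequences are the annotated genes in RefSeq TAIR10.1, minus strand, at chr4:8713226-8713353 and chr5:4222003-4222085. Capitals mark the first TGATGA and the last CTGA, the letters of the C and D boxes that bind core proteins in box C/D snoRNAs.
SNOR37-2: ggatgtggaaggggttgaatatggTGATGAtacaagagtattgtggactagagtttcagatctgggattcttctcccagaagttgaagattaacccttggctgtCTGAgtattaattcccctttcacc
AT5G13225: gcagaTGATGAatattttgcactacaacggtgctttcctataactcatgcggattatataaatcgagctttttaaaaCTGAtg

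Searched on the strand of the gene, TGATGA followed by CTGA was found in 137 of 287 annotated snoRNA genes. SNOR37-2 was at 12.6, 18.7 and 3.82 CPM in atrzf1 and 7.66, 11.4 and 2.33 CPM in pca31, with paired differences of -0.69, -0.70 and -0.61 and a log2 fold change of -0.73 ± 0.24. AT5G13225 was at 10.8, 10.9 and 3.06 CPM in atrzf1 and 6.18, 7.43 and 1.93 CPM in pca31, a change of -0.68 ± 0.21. For both, each pca31 library was below its partner and the groups overlapped through library 3. AT5G13225 lies within another annotated transcript on its strand, AT5G02055, so its counts may include that transcript. Another snoRNA gene, AT2G35747, had wider paired differences of -0.87, -0.75 and -1.06, at 2.58 CPM or less in every one of these libraries. It overlaps AT2G35750 on its own strand, so its counts may include that gene.

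Of 68 snoRNA genes measured, 24 (35.3%) were lower in all 3 pairs and 0 were higher, beside 11.4% and 12.6% of all genes. This class was looked at after its values were seen. The median log2 fold change was -0.50, against 0.03 over all genes, and 64 of the 68 fits were below 0. The number called by edgeR, DESeq2 or limma-voom was 0, and 15 had an unadjusted edgeR p under 0.05, beside 914 of the 20672 genes measured. The median paired difference was -0.52 in pair 1, -0.68 in pair 2 and 0.04 in pair 3. Pairs 1 and 2 carried the difference, and with pair 3 left out 54 of the 68 were lower in both pairs.

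Spliceosomal snRNA genes, whose RNAs remove introns, and tRNA genes, whose RNAs carry amino acids, gave similar counts. Of 13 snRNA genes, 5 (38.5%) were lower in all pairs and 0 higher, with pair medians of -0.75, -0.86 and 0.11. U2.4, a gene of the U2 RNA, was at 33.0, 51.1 and 13.8 CPM in atrzf1 and 19.2, 30.7 and 10.9 CPM in pca31, a change of -0.62 ± 0.19. It overlaps 2 genes on its own strand, so its counts may include them. Of 18 tRNA genes, 5 (27.8%) were lower in all pairs and 0 higher, at a median level of 0.166 to 0.811 CPM across the 6 libraries, close to the floor. The summed snoRNA level was 530, 859 and 144 CPM in atrzf1 and 355, 496 and 141 CPM in pca31, with 499, 1060 and 158 CPM in WT. These RNAs lack the usual poly(A) tail that the library kit primes from, and whether library making bears on their levels was not tested.

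**Figure D4:**
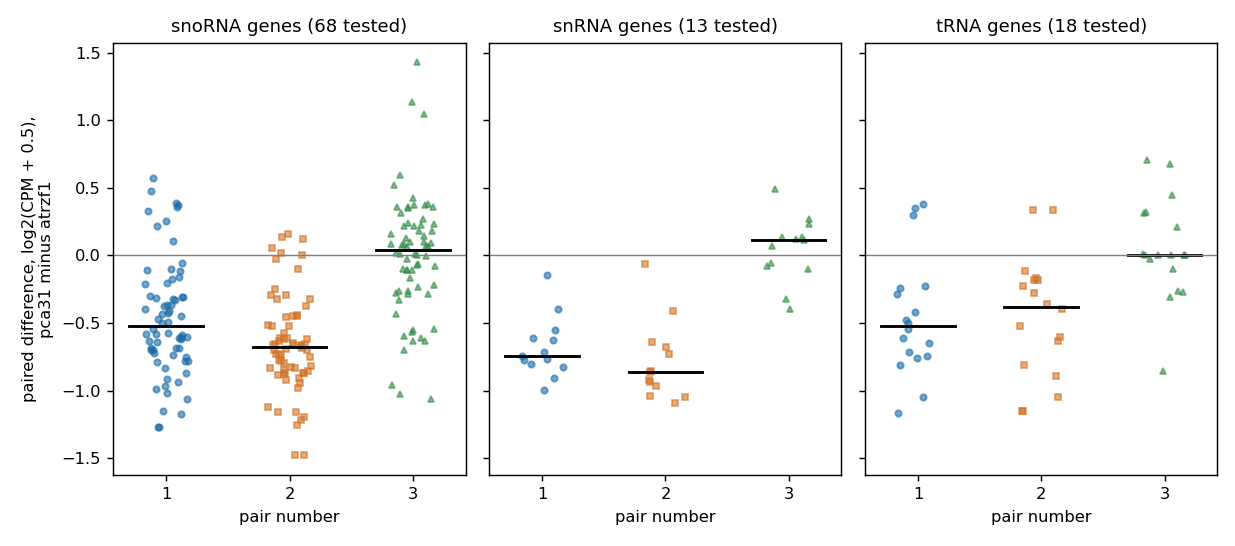
Paired differences, log2(CPM + 0.5) of pca31 minus atrzf1, of the snoRNA, snRNA and tRNA genes measured, 1 point per gene in each pair, with black bars for the medians. Medians lie at -0.75 to -0.52 in pair 1 and -0.86 to -0.38 in pair 2, and at 0 to 0.11 in pair 3.

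Most light-harvesting and Rubisco small subunit genes lay lower in pca31 in every pair. The light-harvesting proteins bind the chlorophyll that feeds both photosystems, and Rubisco fixes carbon dioxide. Of the 18 members measured, 11 (61.1%) were lower in all 3 pairs and 0 higher, beside 11.4% and 12.6% of all genes, and all 18 fits were below 0. The median log2 fold change was -0.34, with fits from -0.50 to -0.14, against a median of 0.03 over all genes. The number that passed the test was 0, and 4 had an unadjusted p under 0.05. The median paired difference was -0.10 in pair 1, -0.63 in pair 2 and -0.31 in pair 3.

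RBCS3B, a Rubisco small subunit, had the largest fitted difference. In order of library number, atrzf1 held 9889, 14811 and 6137 CPM and pca31 held 7419, 9819 and 4374 CPM, with paired differences of -0.41, -0.59 and -0.49. Each pca31 library was below its partner and the groups overlapped, since number 3 was the lowest in both genotypes. The log2 fold change was -0.50 ± 0.15, with an edgeR adjusted p of 0.956. LHCB2.1, a photosystem II antenna protein, was at 5320, 203 and 1231 CPM in atrzf1 and 4327, 130 and 920 CPM in pca31, a change of -0.44 ± 0.19. Its near-copy LHCB2.2 gave paired differences of -0.25, -0.70 and -0.52, and reads may be exchanged between such copies. CAB1, LHCA2, LHCA4, LHCB3, LHCB4.2, LHCB5, RBCS1A and RBCS2B were the other members lower in all pairs.

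The summed level of the list was 113431, 88971 and 46868 CPM in atrzf1 and 107551, 57329 and 37737 CPM in pca31, or 10.8%, 7.33% and 5.49% of counts against 10.6%, 6.0% and 4.71%. The sum was lower in pca31 in each pair, by far the most in number 2, and the groups overlapped. Without pca31 library 2 the list median was -0.16. Under library totals it was -0.18, with 9 members lower in all pairs and 0 higher. Root markers went the other way in pair 3, with a list median paired difference of -0.05 in pair 1, 0 in pair 2 and 0.56 in pair 3. The part of tissue balance in these values was not tested.

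**Figure D5:**
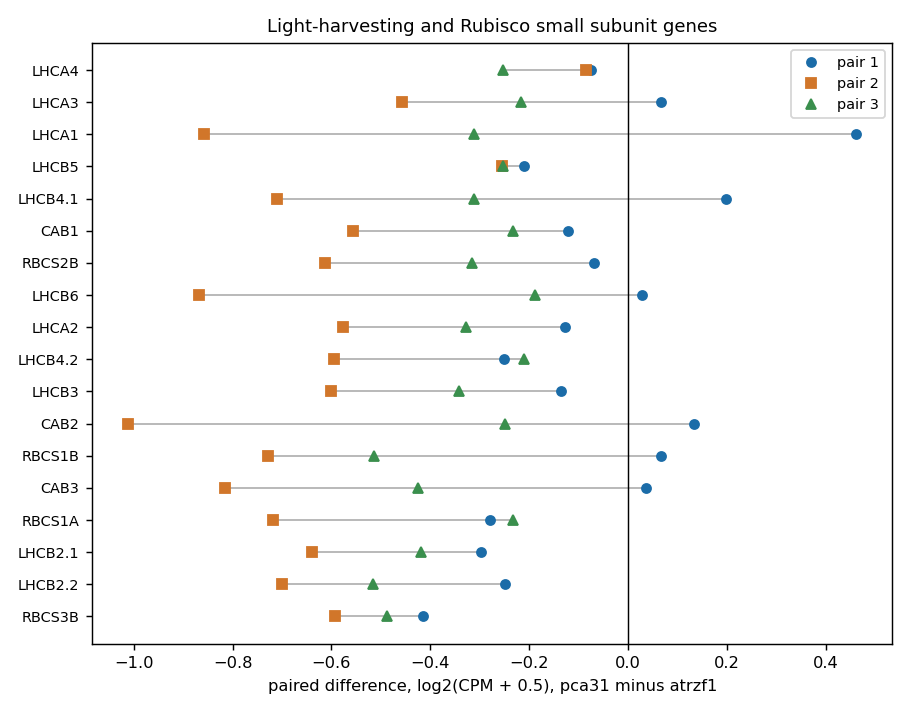
The 3 paired differences, log2(CPM + 0.5) of pca31 minus atrzf1, of the 18 light-harvesting and Rubisco small subunit genes, 1 row per gene. Pairs 2 and 3 are below 0 in every row, and in pair 1 the 7 members that were not lower in all pairs lie above 0.

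The proline list held P5CS and P5CR enzymes of synthesis, the dehydrogenases of breakdown and the transporters. Of its 10 members, 2 (20%) were higher in all pairs and 2 (20%) lower, with 0 called and a median log2 fold change of -0.01. Over all genes 12.6% were higher and 11.4% lower, shares that belong beside this list and those below. ERD5, the proline dehydrogenase of the first step of breakdown, was at 40.0, 47.0 and 27.6 CPM in atrzf1, 16.5, 30.1 and 21.7 CPM in pca31, and 19.4, 44.3 and 34.3 CPM in WT. Each pca31 library was below its partner, by 1.25, 0.63 and 0.34 on the log2 scale, and the groups overlapped. The log2 fold change was -0.79 ± 0.23, with an edgeR adjusted p of 0.956 and a range of -1.04 to -0.44 over 17 alternatives. P5CS1, the rate-limiting enzyme of proline synthesis, was at 233, 73.1 and 152 CPM in atrzf1 and 242, 109 and 180 CPM in pca31, with a log2 fold change of 0.29 ± 0.16. Its groups overlapped, and its differences were 0.05, 0.57 and 0.24 in pairs 1, 2 and 3.

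The transporter ProT3 was higher in all pairs by 0.04 to 0.14 on the log2 scale and PROT2 was lower by 0.10 to 0.23. The 6 remaining genes, P5CS2, P5CR, the second dehydrogenase AT5G38710, ALDH12A1, DELTA-OAT and PROT1, had pairs of both signs and fits of -0.43 to 0.18. ALDH12A1 (AT5G62530), which finishes proline breakdown, had a log2 fold change of 0.18 ± 0.21. Without number 2 it was -0.08, and without atrzf1 library 2 alone it was -0.07.

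Of 7 rhamnogalacturonan lyase genes, 4 passed the filter on low counts, 1 was lower in all pairs and 0 higher. AT1G09910 was at 12.8, 7.93 and 16.0 CPM in atrzf1 and 10.7, 11 and 13.5 CPM in pca31. Its groups overlapped and its log2 fold change was 0.00 ± 0.20. AT2G22620, lower in all pairs, was at 0.778, 1.45 and 1.57 CPM in atrzf1 and 0.708, 0.809 and 0.764 CPM in pca31, with a log2 fold change of -0.67 ± 0.55. AT1G09890 and AT4G24430 were at 0.547 CPM or less in every atrzf1 and pca31 library, with pairs of both signs. AT1G09880, AT4G37950 and AT4G38030 did not pass the filter and reached at most 0.465 CPM in these libraries.

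Of 14 genes for rhamnogalacturonan-I and rhamnose synthesis, 2 (14.3%) were higher in all pairs and 3 (21.4%) lower, beside 12.6% and 11.4% of all genes. The median log2 fold change of the list was 0.02. ARAD2, a relative of the arabinan arabinosyltransferase ARAD1, was at 1.59, 0.964 and 1.78 CPM in atrzf1 and 4.28, 3.18 and 3.09 CPM in pca31. The groups did not overlap, and WT was at 3.55, 0.546 and 3.42 CPM. For ARAD2 the log2 fold change was 1.37 ± 0.47 with an edgeR adjusted p of 0.956, and ARAD2 overlaps another annotated transcript on its strand. AT5G15740, an O-fucosyltransferase family gene known as a rhamnosyltransferase of the backbone, was higher in all pairs by 0.12 to 0.46. Lower in all pairs were the rhamnose synthase RHM3, ARAD1 itself and the galactan synthase GALS1, with fits of -0.21 to -0.16. Of 10 measured genes for homogalacturonan, the other main pectin, 0 were higher in all pairs and 1, PMR6, was lower, with a list median of -0.03.

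Dehydration and abscisic acid genes gave 2 of 25 members (8%) higher in all pairs and 2 (8%) lower, beside 12.6% and 11.4% of all genes. The median log2 fold change of the list was 0.11. HAB1, a phosphatase that holds back abscisic acid signalling, was at 8.65, 11.3 and 10 CPM in atrzf1 and 13.0, 14.2 and 16.3 CPM in pca31, without overlap. Its log2 fold change was 0.53 ± 0.23. KIN2, a cold- and drought-induced protein, was at 2109, 3258 and 321 CPM in atrzf1 and 1809, 2115 and 148 CPM in pca31, with a change of -0.60 ± 0.26. The groups overlapped, with number 3 low in both. RD22 was lower in all pairs by 0.05 to 0.63 and the protease subunit ERD1 higher by 0.12 to 0.26.

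Stress and defence lists mostly changed sign between pairs. Jasmonate and ethylene defence genes had pair medians of 1.12, -0.89 and -0.26, and 0 of 28 were higher in all pairs while 1, PDF1.2, was lower. Their summed level was 3114, 3714 and 1316 CPM in atrzf1 and 6231, 2313 and 1171 CPM in pca31. Touch, wound and cold genes had pair medians of 0.30, -0.77 and 0.31, with 2 of 18 higher (WRKY53 and TCH3) and 1 lower (TCH4). Flavonoid genes had pair medians of 0.53, -0.55 and 0.11, with 1 of 13 higher and 0 lower. That gene, the flavonol regulator MYB111, was at 4.56, 10.3 and 2.26 CPM in atrzf1 and 6.82, 14.3 and 3.69 CPM in pca31, a change of 0.58 ± 0.22 with overlapping groups.

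Of 15 salicylic acid defence genes, 0 were higher and 1 lower, the antifungal protein PR5, at 3.75, 13.9 and 7.14 CPM in atrzf1 and 2.96, 8.78 and 1.99 CPM in pca31. Its log2 fold change was -1.03 ± 0.41 and the groups overlapped. The median fit of heat shock genes was 0.38. In all pairs 3 of 13 were higher (the chaperone HSP90.1 and the regulators HSFA7A and MBF1C) and 1 was lower (HSP18.2). Pair medians of that list were 0.32, 0.43 and -0.10. Hypoxia genes gave 1 of 10 higher and 2 lower, iron deficiency genes 2 of 15 higher and 0 lower, and dark and sugar starvation genes 1 of 9 higher and 2 lower. Clock genes gave 1 of 17 higher (ELF3) and 1 lower (BOA). The counts of these lists stand beside 12.6% higher and 11.4% lower over all genes. Of the 269 measured members of the 19 lists, 0 were called by edgeR, DESeq2 or limma-voom, and 15 had an unadjusted edgeR p under 0.05, beside 914 of all 20672 genes.

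Markers of other tissues were read the same way. Of 19 root markers measured, 3 (15.8%) were higher in all pairs and 0 lower, beside 12.6% and 11.4% of all genes. BGLU21, a root beta-glucosidase, was at 0, 0 and 51.7 CPM in atrzf1 and 0.0322, 0.0289 and 118 CPM in pca31, so its signs in pairs 1 and 2 rest on levels under the floor. BGLU22 and NAI2, of the same endoplasmic reticulum bodies, were the other members, with NAI2 at 4.56, 1.71 and 90.6 CPM in atrzf1 and 6.63, 1.96 and 129 CPM in pca31. Pollen coat transcripts, with 0 of 9 members of the same sign in all pairs, summed to 115, 70.0 and 0.510 CPM in atrzf1 and 156, 178 and 0.399 CPM in pca31. Floral genes gave 1 of 15 higher and 0 lower. Of 7 reference genes, 1 was higher and 2, the elongation factor AT5G60390 and UBQ10, were lower, with a median log2 fold change of -0.09. Their fits were below 0 in 6 and above 0 in 1, with pair medians of -0.21, -0.17 and -0.16. The reference genes summed to 16162, 18923 and 17094 CPM in atrzf1 and 14706, 14500 and 14842 CPM in pca31, lower in each pair.

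Positions along the genome were counted by chromosome, with no test. From 11.9% to 13.2% of the genes measured on each of the 5 chromosomes were higher in all pairs and 10.4% to 13.0% were lower. The 42 genes at least 1.5-fold higher numbered 9, 3, 8, 8 and 14 on chromosomes 1 to 5. The 14 lower numbered 2, 5, 3, 4 and 0. Genes measured on these chromosomes numbered 5455, 3212, 4067, 3096 and 4785. Of the 42 higher genes, 40 were protein-coding, as were 9 of the 14 lower genes, beside 19883 of the 20672 genes measured. Beside those already named, the higher genes held FLS3, a flavonol synthase homologue, 4CL5 of phenylpropanoid metabolism, the fatty acid reductase FAR5, the glutathione transferase GSTU9 and the ovule regulator STK, chosen for mention after their values were seen. The lower genes held AMY1, an alpha-amylase, and the nudix hydrolase NUDT6. STK was at 0.203, 0 and 0 CPM in atrzf1 and 0.869, 0.376 and 0.432 CPM in pca31, close to the floor, and GSTU9 was at 0.0676, 0 and 3.5 CPM in atrzf1 and 1.93, 0.347 and 8.60 CPM in pca31.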

How the data were processed

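Seedling RNA (500 ng, TRIzol) was made into Lexogen QuantSeq 3′ libraries, per the labels' protocols. The deposited files hold a raw count for each gene. The authors used Bowtie2 and bedtools with TAIR10, per the submitters' processing notes. The sources used here do not give their settings, strand or annotation. Of 33323 identifiers, 32835 matched RefSeq TAIR10.1, the source of names, coordinates and sequences.

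Genes were kept by filterByExpr (minimum count 10, minimum total 15), leaving 20672. All 9 libraries were fitted with edgeR 4.0.16 in R 4.3.3 (glmQLFit and glmQLFTest), with genotype and replicate number as terms. P-values were adjusted by Benjamini-Hochberg at 0.05. Paired differences are pca31 minus atrzf1 of the same number, in log2(CPM + 0.5), which understates low genes. SE is the size of the log2 fold change divided by the square root of F. With 3 pairs, an exact paired test cannot go below a two-sided p of 0.25.

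Whether the numbers pair the libraries was checked. Deviations from the genotype mean correlated across genes at 0.625, 0.711 and 0.858 for same-numbered atrzf1 and pca31 libraries, and at -0.742 to 0.160 for others. Deviations cancel within a genotype, so part of that contrast is built in. Spearman correlations of the levels themselves were 0.980, 0.969 and 0.982 for same-numbered libraries and 0.845 to 0.959 for others. Within a genotype, libraries differed by a chi-square per degree of freedom of 181 to 328, so none was a duplicate.

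Named genes were AT4G21620, AtRZF1, the lyase and proline lists, genes called, 14 per direction ranked by their smallest paired difference at a mean of 5 CPM or more, and up to 3 members per list. The members and lists were chosen with earlier results of these data known. Alternatives used DESeq2 1.42.0 and limma 3.58.1, other scalings, filters, pseudocounts and sets of libraries. The fit was tested on simulated data.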

Additional observations from a re-analysis of the deposited data

How the results depend on the processing

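AT4G21620 was called in all 17 alternatives, with log2 fold changes of -8.36 to -7.90. The count of called genes was 1 in the reported fit and 4 with no filter on low counts (AT4G21620, AT4G31480, MRD1 and HEI10). It was 2 in the fit of the 6 libraries alone, 2 with DESeq2 and 2 with limma-voom. Leaving out libraries gave 1 to 3, the 3 coming without pca31 library 2. Without the replicate block it was 1, and an unadjusted p under 0.05 was reached by 44 genes, against 914 with the block, so the block changed no other call. Genes of the same sign in all pairs numbered 2601 higher and 2363 lower. Library totals gave 4774 and 900, DESeq2 size factors 2359 and 2688, and a 5 CPM filter 1457 and 1753. Over the 2 pairs left without a number, which by construction is a looser demand, they were 5081 to 5363 and 4726 to 5032. Genes at least 1.5-fold apart, 42 higher and 14 lower, numbered 101 and 7 with library totals, 9 and 6 at 5 CPM, 152 and 44 with a pseudocount of 0.1, 3 and 2 with a pseudocount of 2, and 254 to 315 and 85 to 167 without a number. The causes of the other moves were not tested. Of the named genes' fits, 708 kept their side of the threshold and either kept direction or changed sign by less than the SE. A further 8 newly passed the threshold, and 2 changed sign by the SE or more without passing it. Some fits near 0, such as that of AT1G09910 (-0.26 to 0.17), thus took both signs. Of the counts of list members with the same sign, 297 stayed within 1.5-fold and 117 did not, settings without a number included. List medians moved by less than the SD of their 3 pair medians in 246 cases and by more in 39. The snoRNA genes lower in all pairs went from 24 to 11 with the 5 CPM filter, which drops members. Depth limits genes near the floor of 3 counts.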
